A study of Mus musculus with 5 samples.

Results

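Collapsed repeats are stretches of a genome assembly that stand for more DNA copies than the assembly holds, so that reads from many copies pile up on 1 position. They were picked here by depth alone. A CpG of chromosomes 1 to 19 was a member where its second count was at least 300 in all 5 libraries. The second count was worked out from the deposited values as described below and is taken as a measure of depth. Which reads it counts was not tested. The ribosomal DNA window of chromosome 17 (39970000 to 39995000 bp, mm9) was left out. This gave 3391 of 4052827 listed autosomal CpGs. In all, 1780536 of the listed ones reached a second count of 10 everywhere and are called all CpGs below. Of the members, 50 lay in the copies of the major satellite that the mm9 assembly holds, 30 on chromosome 2 (98500000 to 98508000 bp) and 20 on chromosome 9 (3000000 to 3040000 bp). The other 3341 lay outside them. The ribosomal window held 460 CpGs past the same depth.

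DNA methylation was measured by reduced representation bisulfite sequencing, in which genomic DNA is cut at CCGG sites and bisulfite converts unmethylated cytosine, so that methylated cytosine can be told apart. There were 2 libraries from K36M mice, 2 from K9M mice and 1 from WT mice. Per the labels, K36M and K9M are dominant negative forms of histone H3.3 at the lysine that each name gives (the M of a name stands for methionine in its place), and these mice were given doxycycline in the drinking water at 2 mg/ml; the labels give no such treatment for WT, so the allele and the agent cannot be told apart. The cells are named HSCs, which stands for hematopoietic stem cells, yet the growth protocol speaks of a sort from peripheral blood, and no marker of cell type can be read from these files. Neither the promoter that drives the mutant histones nor the animals' age is given, and nothing says that replicates were separate animals, so that any p-value measures the spread between these libraries, which may be technical. WT had no replicate.

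Most repeats in a mammalian genome carry dense CpG methylation, which helps to keep them silent. The mouse major satellite is the tandem repeat of pericentromeric heterochromatin, which is rich in histone H3 methylated at lysine 9, while methylation at lysine 36 marks transcribed and intergenic chromatin and recruits DNA methyltransferases. Ribosomal DNA is another tandem repeat, whose copies are in part methylated and in part active.

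The deposited fractions were on different scales. Members with a deposited level of at least 98% in K9M replicate 2 had medians, as deposited, of 55.6% and 55.6% in K36M, 57.7% and 98.6% in K9M and 55.3% in WT. Levels are therefore given as relative levels: the methylated count over the second count, divided by the same ratio at the library's most methylated tiles (its plateau), in percent. A relative level can pass 100%, and a change that scales a whole library alike cannot be seen on it. In K9M replicate 2 the second count is the deposited count itself, so its methylated count cannot pass its second count. The relative level of K9M replicate 2 thus has an upper limit that the other libraries lack. This limit can enter K36M minus K9M at levels above 100%, by an amount that was not tested. The 4 libraries other than K9M replicate 2 were read as a total made of a methylated count and the second count, which is an inference from the values.

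The depth that chose the members is given as a description only. Outside the satellite windows the median second count of a member was 467 and 620 in K36M, 494 and 640 in K9M and 655 in WT, between 13.3 and 15.2 times the median of all CpGs in the same library. Together the members held between 5.44% and 5.78% of all autosomal second counts, and the satellite members alone between 2.19% and 2.54%. At the edge of the rule, the 5 CpGs just inside had a lowest second count of 300 and mean levels between 100.7% and 104.7%, and the 5 just outside had a lowest second count of 299 and mean levels between 82.9% and 104.9%. At this edge a ratio of 300 to 300 counts has a 95% counting interval of 85.2% to 117.4% of its value. Intervals cover counting error only, since reads were amplified over 12 cycles and carry no molecular identifiers that the sources used here describe.

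The satellite copy of chromosome 2 was the deepest place of all. Its 4 deepest CpGs, at 98506419, 98506429, 98506550 and 98506660, held between 2.00% and 2.32% of all autosomal second counts of a library. The CpG at 98506429 had second counts of 669066 and 720555 in K36M, 597130 and 793702 in K9M and 730014 in WT. Its relative level was 93.8% and 92.3% in K36M, 92.2% and 93.7% in K9M and 93.1% in WT, so all 5 libraries lay within 2 points and the groups overlapped. The CpG at 98506550 was lower, at 86.6% and 85.7% in K36M, 86.2% and 85.9% in K9M and 85.1% in WT.

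Satellite DNA was methylated in all groups: 44 of the 50 satellite CpGs had a mean level of 80% or more. A pair on chromosome 2 stood apart. The CpG at 98502758, with a second count over 10000 in every library, was at 15.7% and 16.2% in K36M, 15.9% and 16.1% in K9M and 14.6% in WT. The CpG at 98502437 was at 27.1% and 31.7% in K36M, 29.6% and 26.2% in K9M and 23.2% in WT. Both lay among CpGs of the same window that were mostly above 80%, and both low values were shared by all 5 libraries.

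**Figure D1:**
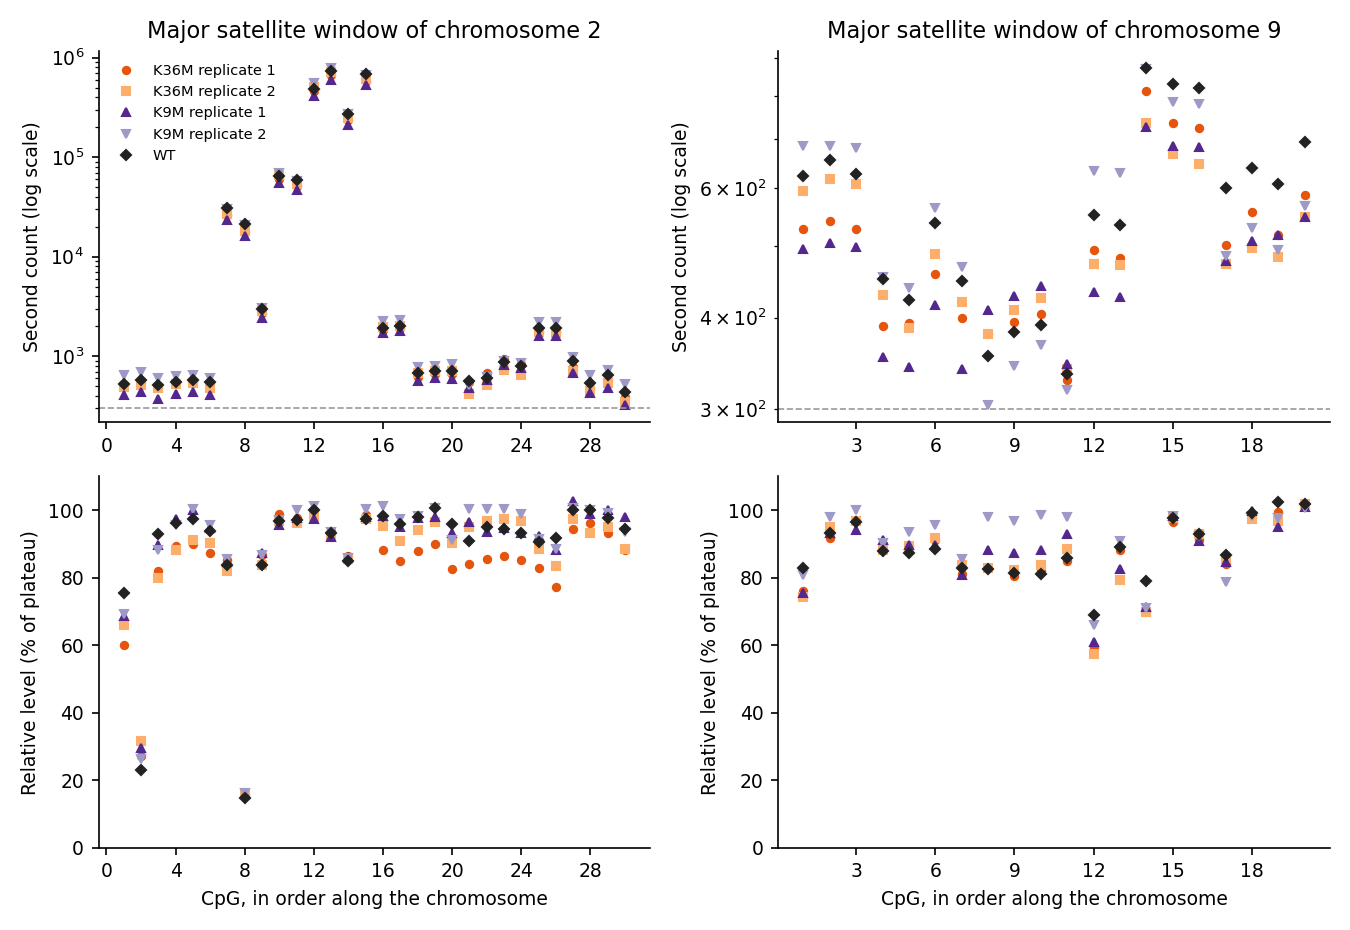
Second count (upper row, log scale, with the minimum of 300 dashed) and relative level in percent of the plateau (lower row) of each member CpG in the satellite windows of chromosome 2 (30 CpGs, left) and chromosome 9 (20 CpGs, right), in order along the chromosome; each symbol is 1 library. The 8 CpGs of chromosome 2 with second counts over 10000 have nearly the same level in all libraries, and K36M replicate 1 lies below the others at most of the shallower CpGs of that window.

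Averaged over its 50 CpGs, the satellite was at 84.8% and 86.6% in K36M, 88.6% and 90.7% in K9M and 88.7% in WT. K36M averaged 85.7% ± 1.25 (SD, n = 2), and K9M averaged 89.6% ± 1.44 (SD, n = 2). Both K36M libraries lay below both K9M libraries and below WT. The difference between K36M and K9M was -3.91 points. An exact two-sided permutation test gave p = 0.333, and no smaller p can be had from 2 libraries a group. K36M lay -2.98 points from WT and K9M 0.931 points, the first more and the second less than the SD of the mutant libraries; the lone WT library was not tested. These directions changed with the summary or the measure. Summed counts, which the deepest CpGs dominate, put K36M 0.0940 points above WT. The methylated count over the sum of both counts, without a plateau, put K9M -1.57 points from WT and K36M 0.816 points above K9M. These are points of another measure, so their size cannot be set beside points of relative level.

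The lower K36M values came from shallower CpGs of the satellite. The 8 CpGs with second counts over 10000 in all libraries were at 83.8% ± 1.04 in K36M and 84.2% ± 1.06 in K9M (SD, n = 2 each), with WT at 83.5%. The other 42 were at 86.1% ± 1.69 in K36M and 90.7% ± 1.51 in K9M (SD, n = 2 each), with WT at 89.7%. Among the 22 shallower CpGs of chromosome 2, K36M replicate 1 was at 83.2% and K36M replicate 2 at 87.7%, against 91.3% and 92.0% in K9M and 90.9% in WT. Counted by CpG, both K36M libraries lay below WT at 25 of 50 CpGs and above it at 10, while both K9M libraries lay below WT at 12 and above it at 25. Over all CpGs at 80% or more, K36M lay below WT in this way at 34.9% and above it at 26.6%, and K9M below WT at 27.8% and above it at 36.3%. Both K36M libraries were below both K9M libraries at 29 satellite CpGs (58%) and above both at 1, against 23.8% and 12.0% of all CpGs at 80% or more, most of which are shallower. Neighbouring CpGs share reads, so these counts are no replicates.

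On chromosome 9 alone the mean was 86.8% and 86.8% in K36M, 87.8% and 91.5% in K9M and 88.4% in WT. Its region from 3006772 to 3006831 was at 82.5% and 84.3% in K36M, 89.2% and 97.8% in K9M and 82.8% in WT, so K9M lay above the other 3 libraries there, with a gap of more than 8 points between its own replicates. The region from 3023506 to 3024868 was at 87.7% and 86.6% in K36M, 87.2% and 88.2% in K9M and 90.9% in WT, with both mutants below WT.

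The CpGs of the chromosome 9 satellite were regularly spaced. Among all 602 listed there, the most frequent distance between a pair within 2 kb was 234 bp, found in 206 of 18018 pairs, followed by 468 bp in 147 pairs and 702 bp in 103 pairs. These are multiples of one length. Among all 68 listed CpGs of chromosome 2 the most frequent distance was 251 bp, in 9 of 1016 pairs, and 234 bp was found in 8. The members alone, being few, showed no 234 bp peak: their most frequent distance was 28 bp, in 7 of 289 pairs over both windows. The region of chromosome 2 with 19 members and 2 of the 3 regions of chromosome 9 shared a run of 7 CpGs with the same 6 distances.

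Outside the satellite windows, the 3341 members fell into 513 regions when neighbours within 1 kb were joined. Over all 518 regions the median was 4 members and a span of 128 bp, the largest held 45 members, and 67 held 1. Members lay close together, with a median distance of 7 bp between neighbours, against 13 bp among all CpGs. The highest rate was on chromosome 6, with 555 members or 6.03 per 1000 CpGs of that chromosome, 341 of them in 1 array described below, and chromosome 19 the lowest rate, 0.808 per 1000. In the first 6 Mb of the chromosomes there were 20 regions with 149 members, and in the last 3 Mb 9 regions with 68 members.

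Members lay more often than other CpGs in spacing that recurs in the genome. A run was defined as 7 successive CpGs with the same 6 distances, over 60 to 1000 bp. Of 5956 runs that held a member, 80.2% recurred at least 1 kb away, against 16.9% of 688665 runs without a member. The distances were not part of the rule, and no test was made, since runs overlap. By such shared runs, 296 regions were joined into 11 sets, numbered by their size. Sequence was not used here, so no set is given a repeat family name.

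Outside the satellites most members were either highly or weakly methylated. Of these 3341 CpGs, 2321 (69.5%) had a mean level of 80% or more, 344 (10.3%) lay between 20% and 80% and 676 (20.2%) below 20%. Among all CpGs, 42.7% were at 80% or more and 48.7% below 20%. The highly methylated members averaged 102.5% and 98.8% in K36M, 98.5% and 96.2% in K9M and 98.1% in WT. The members below 20% averaged 11.1% and 7.71% in K36M, 10.7% and 5.86% in K9M and 9.70% in WT. Both replicates 1 lay above WT and both replicates 2 below it in this low class.

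Over all members outside the satellites the mean level was 78.4% and 74.6% in K36M, 75.5% and 72.4% in K9M and 74.8% in WT. K36M averaged 76.5% ± 2.64 and K9M averaged 73.9% ± 2.19 (SD, n = 2 each), and the libraries of the groups overlapped. K36M minus WT was 1.66 points and K9M minus WT -0.942 points, both smaller than the SD. K36M minus K9M was 2.60 points, with p = 0.667 in the same exact permutation test. With summed counts all 3 differences turned, to -0.0600, 0.126 and -0.186 points, and without K36M replicate 1 K36M lay -0.204 points from WT. By region, both K36M libraries were below WT in 121 of 513 regions and above it in 126, and both K9M libraries below WT in 168 and above it in 75. Over all tiles these shares were 38.8% and 25.1% for K36M, and 27.5% and 37.3% for K9M. Tiles sum counts of mostly shallower CpGs, so regions and tiles are unlike units.

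At intermediate levels K36M minus WT was smaller in size among members than over all CpGs. Over the 153653 CpGs of the genome at 20% to 80%, the mean level was 53.1% and 52.9% in K36M, 58.8% and 62.5% in K9M and 59.5% in WT, a K36M minus WT difference of -6.56 points. The 344 members of that class were at 48.0% and 43.0% in K36M, 47.2% and 42.2% in K9M and 46.1% in WT, a difference of -0.627 points. The 2 differences share the WT library and their own difference was not tested.

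**Figure D2:**
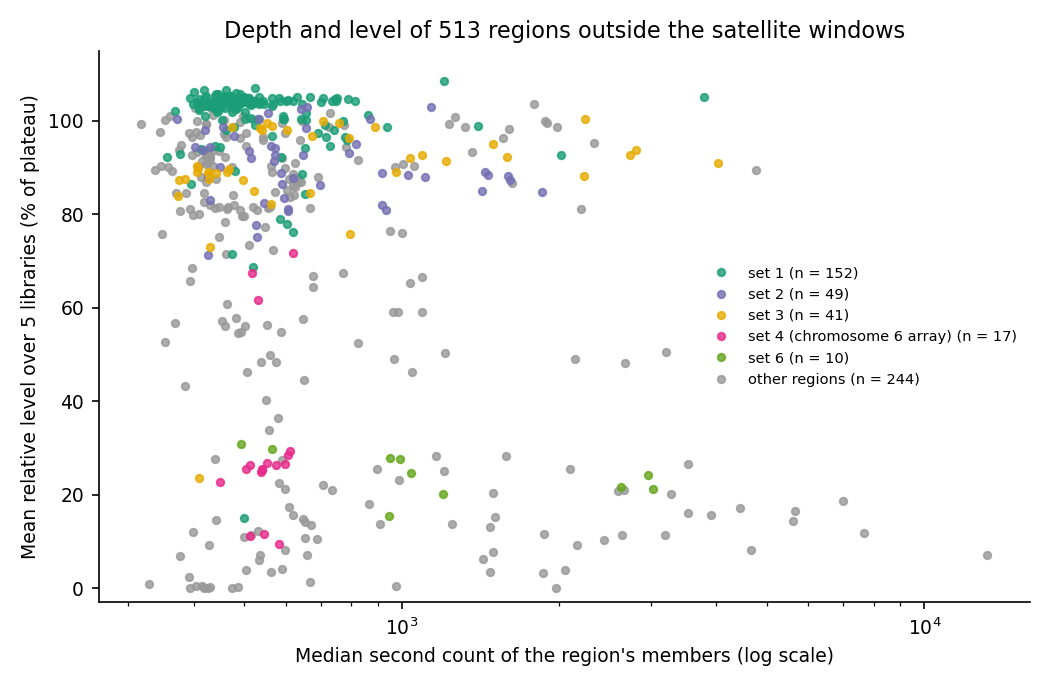
Median second count of the members (x axis, log scale) and mean relative level over 5 libraries in percent of the plateau (y axis) for the 513 regions outside the satellite windows; each point is 1 region, coloured by the set that shares its CpG distances. Shallower regions lie mostly near 100%, while the 5 deepest regions all lie below 20%.

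Level by depth is a description, since the second count chose the members and is also the denominator of the level. Of 429 regions with a median second count under 1000, 40 (9.32%) had a level below 20%, and their median level was 92.4%. Of 49 regions between 1000 and 2000, 9 (18.4%) were below 20%. Of 35 regions at 2000 or more, 14 (40%) were below 20%, and the median level was 21.3%. The deepest region of all, on chromosome 13 from 9011036 to 9011389, had a median second count of 13202.5 (the middle of its 4 CpGs and 5 libraries). Its level was 12.1% and 3.75% in K36M, 10.1% and 2.81% in K9M and 6.94% in WT.

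The next 4 by depth were low as well. The region of chromosome 10 from 11211899 to 11211974 was at 16.7% and 8.47% in K36M, 17.6% and 5.71% in K9M and 10.6% in WT. The region of chromosome 11 from 105928092 to 105928131 was at 23.6% and 13.5% in K36M, 27.3% and 8.57% in K9M and 20.1% in WT. Farther along chromosome 11, from 108873012 to 108873326, the level was 23.7% and 11.9% in K36M, 23.0% and 7.80% in K9M and 16.1% in WT. On chromosome 5 from 147072588 to 147072754 it was 21.3% and 8.77% in K36M, 21.6% and 7.68% in K9M and 13.1% in WT. All 5 of these regions had both replicates 1 of the mutants above WT and both replicates 2 below it.

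That order of libraries was found in 20 of 63 regions below 20% (31.7%), in 28 of 101 regions between 20% and 80% (27.7%) and in 32 of 349 regions at 80% or more (9.17%). Among single CpGs of the genome, which are shallower and noisier than regions, it was found in 1.30% to 2.41% by class. Of 37 regions with a median second count of at least 1000 and a level under 40%, limits chosen after the values were seen, 26 had this order. In those 37 the mean was 20.5% and 12.4% in K36M, 20.3% and 9.02% in K9M and 15.6% in WT. The ribosomal window had the same order, at 19.2% and 11.6% in K36M, 19.5% and 7.74% in K9M and 14.0% in WT. Replicates of 1 mutant thus differed by more than the mutants' means did from WT at these regions, and the labels do not say what libraries of the same number share.

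One region shared a run of distances with the ribosomal window. It lay on chromosome 6 from 3150794 to 3151577, held 33 members at a median second count of 3914, and was at 19.5% and 13.4% in K36M, 20.7% and 8.70% in K9M and 16.4% in WT. No region shared a run with the mitochondrial genome. Elsewhere 11 regions had a mean level below 1%, 9 of them below 1% in every library. The 5 lowest lay between 0% and 0.424% in all libraries, such as the single CpG of chromosome 11 at 6253074, at 0.0418% and 0.157% in K36M, 0.0404% and 0.195% in K9M and 0.0376% in WT. In 6 of their values no methylated count was seen, and 3 counts of the shallowest of these would be a level of 0.917%.

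Set 1 was the largest, with 152 regions and 1383 members on all 19 chromosomes, and its runs were found at 1779 loci of the genome. It averaged 109.9% and 101.2% in K36M, 101.8% and 97.0% in K9M and 100.4% in WT. K36M replicate 1 had the highest level in 138 of the 152 regions, while K36M replicate 2 lay within 1 point of WT. The region with most members of all belonged to this set: chromosome 7 from 79795183 to 79798462, with 45 CpGs at 108.5% and 103.0% in K36M, 99.6% and 97.5% in K9M and 100.1% in WT. So did the 5 regions of highest level, led by chromosome 13 from 16699009 to 16699657, at 119.8% and 110.4% in K36M, 105.8% and 101.0% in K9M and 105.7% in WT.

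The other highly methylated sets moved in other directions. Set 2, with 49 regions and 323 members, was at 86.2% and 93.2% in K36M, 90.3% and 94.6% in K9M and 91.1% in WT. Set 3, with 41 regions and 260 members, was at 85.3% and 94.4% in K36M, 90.5% and 86.6% in K9M and 92.0% in WT. K36M replicate 1, highest in set 1, was thus lowest in both. In no set of these 3 did the 2 K36M libraries lie on one side of WT by more than the distance between them.

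**Figure D3:**
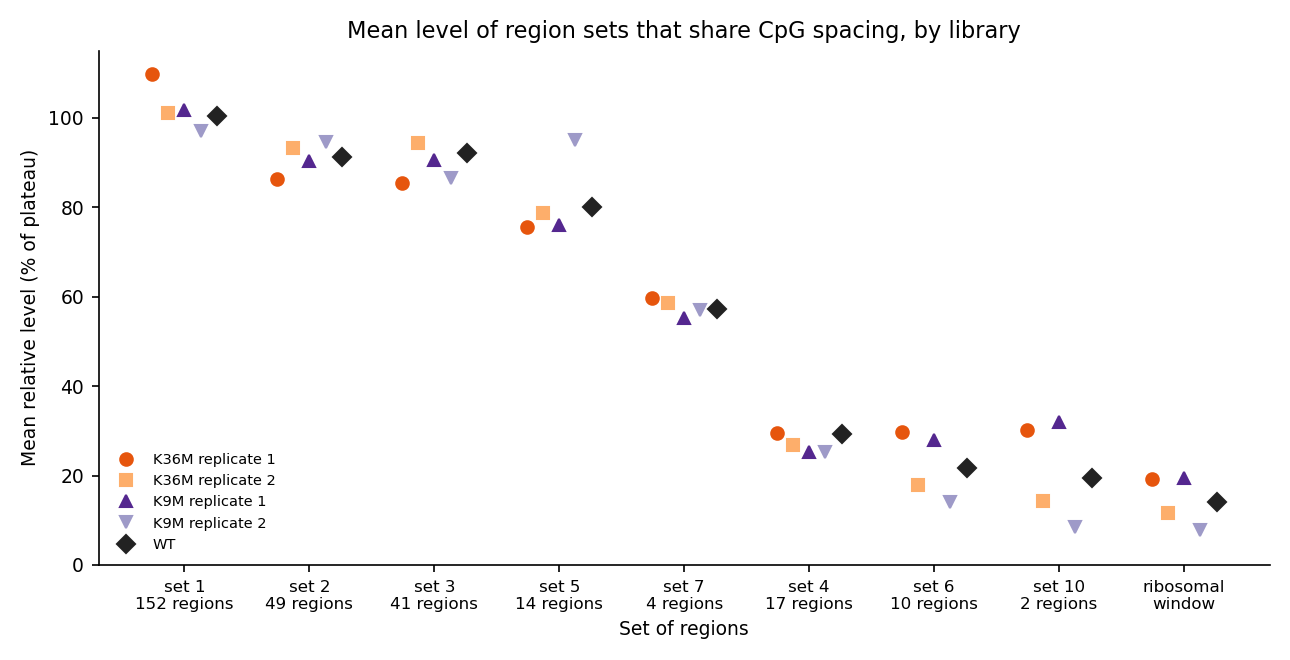
Mean relative level in percent of the plateau (y axis) of sets of regions that share CpG distances, and of the ribosomal window, by library (symbols; K36M, K9M, then WT from left to right in each set). In sets 4 and 7 both K9M libraries lie below the other 3, and in set 5 K9M replicate 2 lies alone at 95.0%.

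Set 5 singled out 1 library. Of its 14 regions on 10 chromosomes, 12 spanned 659 bp and the other 2 held 1 member each, with 51 members in all and region levels between 79.7% and 82.1%. It was at 75.5% and 78.7% in K36M, 76.0% and 95.0% in K9M and 80.1% in WT. K9M replicate 2 lay above the mean of the other 4 libraries in all 14 regions, by a median of 17.6 points. In set 1 the same library lay below that mean by a median of -6.90 points and in set 6 by -10.7 points, and in set 2 above it by 4.07 points. K9M replicate 2 is the library deposited on another scale, and its methylated count cannot pass its second count. Its level thus has an upper limit that the other 4 libraries lack. In set 1, K36M replicate 1 averaged 109.9% and K9M replicate 2 averaged 97.0%. How much of these offsets comes from the scale and its limit was not tested.

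Set 6 (10 regions, 122 members) and set 10 (2 regions of chromosome 4, 14 members) were low. Set 6 was at 29.8% and 17.9% in K36M, 27.9% and 14.2% in K9M and 21.6% in WT. Set 10 was at 30.3% and 14.2% in K36M, 31.9% and 8.39% in K9M and 19.4% in WT. Both had the order of the deepest regions. Set 7 (4 regions, 23 members) was intermediate, at 59.7% and 58.6% in K36M, 55.3% and 57.0% in K9M and 57.2% in WT. On average both K9M libraries lay below the other 3, with K36M minus K9M at 2.95 points; region by region this order held in 2 of the 4.

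Set 4 was a tandem array on chromosome 6. Together with short regions between them, its copies ran from 47603665 to 47728278 in 2 stretches of 34 regions and 341 members. Short regions of 2 CpGs, 11 bp from first to last base, lay among long regions of a median span of 1021 bp. There were 17 of each kind, and most followed each other in turn. Successive short regions started a median of 4325 bp apart, with 1275 to 8645 bp as the range over 15 steps.

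The array was methylated in part of its unit. The short regions were at 95.3% and 86.3% in K36M, 94.0% and 94.5% in K9M and 94.2% in WT. The long regions averaged 29.6% and 26.9% in K36M, 25.1% and 25.4% in K9M and 29.3% in WT, with 194 of their 307 members below 20% and 51 at 80% or more. By distance from the start of the preceding short region, which 286 of these members had, those between 1000 and 1250 bp were at 99.7% and 88.6% in K36M, 88.3% and 87.8% in K9M and 91.4% in WT. Members between 1750 and 2000 bp, 172 in number, were at 6.75% and 5.68% in K36M, 4.26% and 4.75% in K9M and 7.48% in WT. Farther on, between 2000 and 2250 bp, they were at 39.3% and 39.7% in K36M, 36.3% and 34.5% in K9M and 43.5% in WT. Single copies varied: in 10 of the 17 long regions, CpGs at 80% or more came first, then CpGs below 20%, then intermediate ones, while 4 held no CpG at 80% or more and 2 none below 20%.

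**Figure D4:**
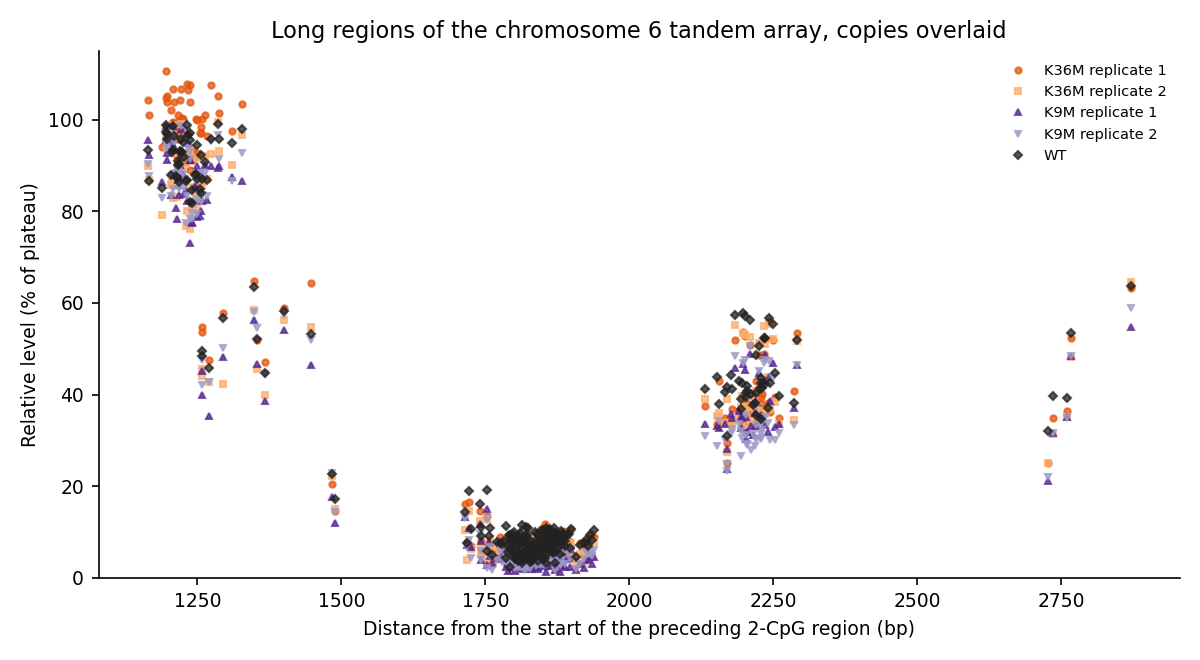
Relative level in percent of the plateau (y axis) of the members in the long regions of the chromosome 6 array, against distance in bp from the start of the preceding short region (x axis), copies overlaid, without the 21 members of 1 long region that no short region precedes; each symbol is 1 CpG in 1 library. Levels are near 90% at the start, mostly below 10% between 1750 and 2000 bp, and intermediate between 2000 and 2250 bp.

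In the long regions of the array both K9M libraries were below WT, while in the short ones K9M minus WT was 0.0776 points. Over the long regions K9M averaged 25.3% ± 0.155 (SD, n = 2), K36M averaged 28.2% ± 1.93 (SD, n = 2) and WT was at 29.3%. Both K9M libraries lay below WT and below both K36M libraries in 17 of 17 long regions, and in 0 of the 17 short ones. In 15 of the short ones K36M replicate 2 was the lowest library, so this order could not occur there. Each short region also rests on 2 CpGs only. Against WT alone, both K9M libraries lay below it in 3 short regions and above it in 4. Both K9M libraries lay below all others in 69 (13.5%) of the 513 regions outside the satellites, the 17 long ones included, and in 7.07% of all tiles. Tiles sum counts of mostly shallower CpGs, so these shares are of unlike units. Whether the copies share reads was not tested, so they are not taken as independent. K9M minus WT was -4.01 points and K36M minus K9M was 2.98 points. In the fit by 1 kb tiles described next, 41 of 50 tiles of the array were lower in K9M than in WT, 19 of them at an unadjusted p under 0.05 (over all tiles 1.23% were), and 0 were called lower, against 0.0242% of all tiles. The lowest adjusted p of the logistic fit was 0.0579, at the tile of chromosome 6 from 47605001 to 47606000. There K9M against WT had an adjusted p of 0.00232 with edgeR and 0.189 with limma, so the tests disagreed. That tile was at 12.3% and 12.6% in K36M, 9.57% and 9.62% in K9M and 14.5% in WT. The next by p, from 47614001 and from 47631001, had adjusted p of 0.286 and 0.308 with K9M minus WT differences of -4.66 and -3.65 points. K36M was higher than K9M at an unadjusted p under 0.05 in 20 of the 50 tiles, against 1.84% of all tiles. In the first of the tiles named the difference was 2.88 points. Its adjusted p was 0.0468 in the logistic fit, 0.00646 with edgeR and 0.140 with limma. Tiles holding members had a median of 22 CpGs, against 5 over all tiles, and deeper CpGs, so the shares above are of unlike tiles.

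For the test across the genome, CpGs were summed into 152678 tiles of 1 kb, and 608 of them held a member. Calls needed an adjusted p under 0.05 and group means at least 10 points apart. Of the 608 tiles, 1 was called lower in K36M than in WT, against 0.439% of all tiles, and 0 were called higher, against 0.0118%. Between K9M and WT 0 were called lower, against 0.0242% of all tiles, and 0 higher, against 0.0458%. Between K36M and K9M 0 were called lower, against 1.16% of all tiles, and 0 higher, against 0.0668%. Member tiles held a median of 22 CpGs, against 5 over all tiles, and deeper CpGs, so the shares that follow are of unlike tiles. At an unadjusted p under 0.05 there were 17 member tiles (2.80%) for K36M against WT, against 5.13% of all tiles, 28 (4.61%) for K9M against WT, against 2.81%, and 38 (6.25%) for K36M against K9M, against 7.29%.

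Among those, 16 of 17 were lower in K36M than in WT, 26 of 28 lower in K9M than in WT, and 28 of 38 higher in K36M than in K9M. Of all member tiles, these were 2.63%, 4.28% and 4.61%. Over all tiles 3.78% were lower in K36M than in WT at that p, 1.23% lower in K9M than in WT and 1.84% higher in K36M than in K9M. The share lower in K36M than in WT was thus smaller among member tiles, and the other shares were larger. Of the 26, 19 were tiles of the chromosome 6 array. The median difference over member tiles was 0.477 points for K36M minus WT, -0.906 for K9M minus WT and 2.17 for K36M minus K9M, while over all tiles it was -0.483, 0.319 and -1.54. Single member CpGs gave 0 calls in all 3 comparisons with the same logistic model. So did all 1780536 CpGs, of which 0% were called, so this says nothing of the members in particular. At an unadjusted p under 0.05 there were 12, 35 and 17 of the 3391 members. The share of all CpGs at that p was not computed, so these counts cannot be read as a result about the members.

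The tile called lower in K36M lay on chromosome 11 from 3024001 to 3025000 and summed 15 CpGs, 5 of them members. It was at 10.6% and 9.15% in K36M, 20.3% and 18.0% in K9M and 20.7% in WT, whose 95% counting interval was 19.4% to 22.1%. Both K36M libraries lay below the other 3, with no overlap. K36M minus WT was -10.8 points, with an adjusted p of 0.00526 in the logistic fit, 1.24e-06 with edgeR and 0.0882 with limma. The call was lost with limma. With the replicate number as a term it was lost too, but 0 of all tiles were called then, which says nothing of this tile. Leaving out 1 mutant library leaves 1 library in a group, so the call could not be checked in that way. K36M minus K9M was -9.27 points at an adjusted p of 0.00169 in the logistic fit, under the minimum size of a call.

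In its neighbours K36M minus WT was smaller in size, and neither was called. The tile before it was at 13.8% and 11.4% in K36M, 14.1% and 15.5% in K9M and 19.0% in WT, with K36M minus WT at an adjusted p of 0.0762 in the logistic fit. The tile after it was at 17.0% and 15.7% in K36M, 18.0% and 17.5% in K9M and 22.7% in WT, at an adjusted p of 0.0926. Next to the start of chromosome 17 a tile from 3083001 with 1 member was at 11.2% and 10.4% in K36M, 14.9% and 16.3% in K9M and 19.1% in WT. Its adjusted p was 0.0126 for K36M against WT and 0.0353 for K36M against K9M in the logistic fit, with differences of -8.32 and -4.82 points. With edgeR these were 3.75e-05 and 0.000778, and with limma 0.0793 and 0.0972, so the tests disagreed. The tile that follows it was at 9.67% and 7.63% in K36M, 13.2% and 16.7% in K9M and 15.5% in WT. Its adjusted p for K36M against K9M was 0.0378 in the logistic fit, 0.000182 with edgeR and 0.177 with limma. Only 1 of its 25 CpGs was a member, and 1 of 19 in the tile before it, so both levels rest mostly on other CpGs.

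**Figure D5:**
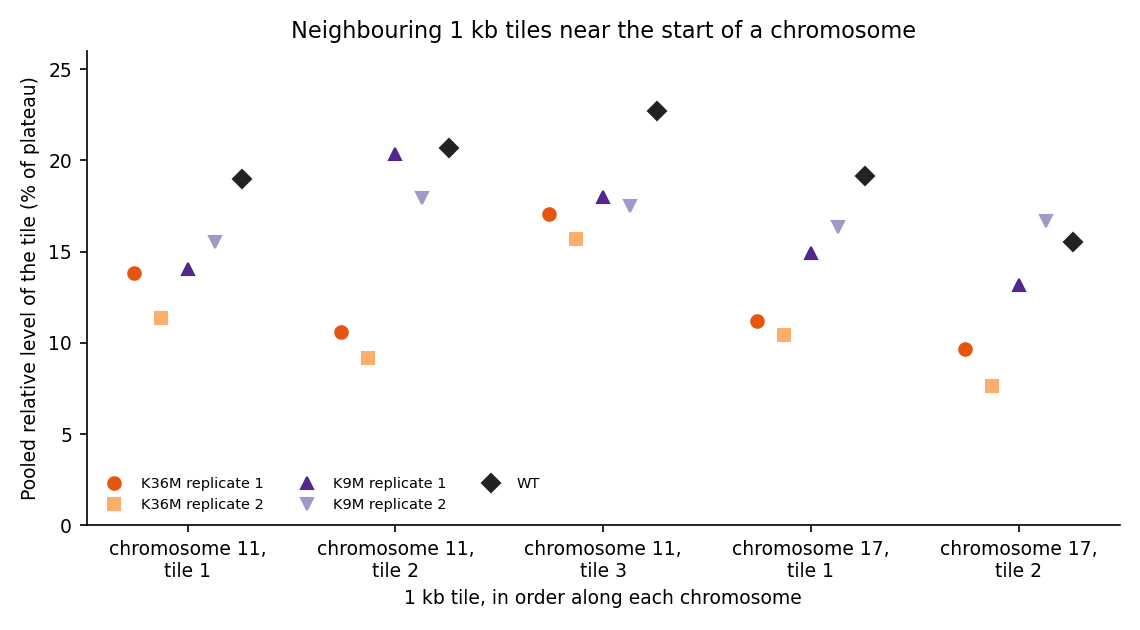
Pooled relative level in percent of the plateau (y axis) of 3 neighbouring 1 kb tiles near the start of chromosome 11 and a neighbouring pair near the start of chromosome 17 (x axis), by library (symbols; K36M, K9M, then WT from left to right). In the second tile of chromosome 11 both K36M libraries lie near 10% and the other 3 libraries between 18.0% and 20.7%.

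Differences were ranked among regions of at least 3 members outside the satellites. The largest K36M minus WT was 10.9 points, on chromosome 4 from 74151499 to 74152034, at 96.1% and 105.0% in K36M, 91.8% and 90.4% in K9M and 89.7% in WT. The smallest was -12.5 points, on chromosome 7 from 46686941 to 46687181, at 100.7% and 95.8% in K36M, 108.9% and 96.6% in K9M and 110.7% in WT. The largest K9M minus WT was 10.2 points, on chromosome 12 from 20239994 to 20240035, at 71.2% and 72.2% in K36M, 75.5% and 88.1% in K9M and 71.6% in WT. The smallest was -9.70 points, on chromosome 15 from 22417703 to 22417929, at 93.3% and 99.5% in K36M, 99.0% and 95.2% in K9M and 106.8% in WT. These are the ends of the 371 regions of that size and rest on 3 to 9 CpGs each.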

How the data were processed

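Reduced representation libraries were made from pellets of about 100000 cells and 10 to 50 ng of DNA with 12 cycles of amplification, per the labels' protocols. cutadapt, BSMAP and the mm9 build are named per the submitters' processing notes, without versions or settings; whether duplicates were removed is not stated. Each file deposited by the authors lists CpG positions with a methylation fraction and a total count. Coordinates are 1-based mm9, and no gene was assigned because the available gene table uses another build.

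The methylated count is the fraction times the deposited count, rounded. The second count is the rest, and in K9M replicate 2 the deposited count itself. Autosomal second counts per library summed to between 84095188 and 108775307. The plateau is the median ratio over the 20% of 1 kb tiles with the highest mean rank, and was 1.22 and 1.26 in K36M, 1.37 and 0.954 in K9M and 1.23 in WT.

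Tiles needed 3 CpGs whose second count reached 10 in each library. A logistic model with the log plateau as offset and all 5 libraries (2 residual degrees of freedom, WT assumed to vary like the mutants) was fitted to all tiles, with quasi-binomial dispersion moderated by limma 3.58.1 (squeezeVar, R 4.3.3) and held at 1 or more; 22.31% of tiles lay above that floor. Deviances were compared by F tests, with p-values adjusted over all tiles by Benjamini-Hochberg. limma on levels and edgeR 4.0.16 on methylated counts with the second count as offset were alternatives, beside other depth minimums, summaries and plateaus, a replicate term and leaving out each mutant library. Other values used Python 3.11.15, numpy 2.4.6, pandas 2.3.3 and scipy 1.17.1. On simulated data of 152678 tiles for K36M against WT, 82 of 100 falls of 50 points and 24 of 100 falls of 30 points were called, with 9 calls among 152478 unchanged tiles. The changed tiles were drawn only from more methylated tiles of the genome, with a spread between libraries set by hand. The rates thus do not describe tiles of low level, tiles holding members or falls under 30 points.

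Members and lists were chosen with earlier results of these data known. Regions were named by rule: the satellite windows, those with most members, greatest depth, highest and lowest level or the largest and smallest differences, and tiles called or lowest in p; a region that led several of these is described once and not all are printed.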

Additional observations from a re-analysis of the deposited data

How the results depend on the processing

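Differences outside the satellites were smaller than what the summary moved. With summed counts K36M minus WT was -0.0600, K9M minus WT 0.126 and K36M minus K9M -0.186 points; with the median CpG K36M minus WT was -0.123. Leaving out 1 mutant library gave -0.204 to 3.53, -2.49 to 0.607 and 0.738 to 4.47 points. In the satellites K36M minus WT was 0.0940 with summed counts and -0.758 without a plateau. K9M minus WT was -0.0429 at 10 times the library median and -1.57 without a plateau, and K36M minus K9M was 0.816 without a plateau. Without a plateau the measure changed as well, to the methylated count over the sum of both counts, so those points are of another size. Leaving out 1 library gave -3.86 to -2.10, -0.0890 to 1.95 and -4.93 to -2.89 points. The cause was not tested.

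The 1 member tile lower in K36M than in WT was lost (0 tiles) with limma and with single CpGs. Leaving out 1 mutant library leaves 1 library in a group, so this call could not be checked in that way. With single CpGs 0 were called over all CpGs as well. Member tiles lower in K36M than in K9M numbered 1 with a depth minimum of 200 and 1 with edgeR, against 0. Over all tiles 1.16% were called so in the logistic fit and 2.5% with edgeR, so 1 call is not read as a result about the members. The most frequent satellite distance was 28 bp in members and 234 bp in all listed CpGs. Leaving the replicate block aside, 11 of 64 alternative differences turned, and 52 kept their direction, those from WT also within the SD of the mutant replicates. Of 72 alternative counts of called member tiles, 57 were 0 where the logistic fit also gave 0, which says nothing of stability.

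K36M and K9M share replicate numbers, which the labels do not say pair the libraries. With a replicate block, K36M minus K9M was 2.60 points outside the satellites and -3.91 in them, the same as without the block by construction, and 0 tiles were called in any comparison, members included. Same-numbered libraries had deviations correlated at 0.428 over the 513 regions.

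Over all tiles, those lower in K36M than in WT numbered 671 in the logistic fit, 256 with limma, 2034 with edgeR and 0 to 196 without 1 library, so the counts set beside the members depend on the test. Depth limits single CpGs at 300 counts, as the intervals show.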

Other observations

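CpGs past the same depth outside the autosomes were not members. On chromosome X, 171 such CpGs averaged 77.8% and 79.8% in K36M, 77.5% and 80.6% in K9M and 79.0% in WT. Of the mitochondrial genome 12 CpGs passed, at 0.568% and 0.394% in K36M, 0.401% and 0.324% in K9M and 0.369% in WT, which is below every mean of the sets described above.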
